A study of Mus musculus with 12 samples.

Results

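The genes described here are 40 genes of fibroblasts and of the extracellular matrix, listed by name, in the small intestine of old and young mice. A gene was represented by its brightest probe set (by the mean of 12 arrays) among those that carry exactly 1 gene symbol, and it was tested if its intensity was over 50 on at least 1 array. Of the 40 genes, 33 passed and were tested among 11917 genes of the series, 6 stayed at or below the limit on every array, and Fbn1 had no probe set with exactly 1 symbol here. The intestine came from male C57BL/6J mice of 21 months (old) and 4 months (young), fed for 2 weeks a high-fat diet (45% of energy from fat) or a low-fat diet (10% of energy from fat) based on palm oil. All mice had first received chow and then the low-fat diet. Each of the 12 arrays (Affymetrix Mouse Gene 1.0 ST) carried RNA of 1 combination of segment (proximal, middle or distal), age and diet, pooled from 8 old or 6 young mice. The same animals gave all 3 segments, which leaves 4 pools of mice behind the 12 arrays. The mice carried no engineered allele. With 1 array per group, the high-fat and low-fat arrays of a segment served as repeats for age and the old and young arrays as repeats for diet. The p-values for age and diet rest on how far these repeats departed from each other, and those for segment on the spread within the pools. In each fit this spread was pulled towards a value estimated from all genes. Over the mean of the segments that shared value weighed most (5.72 prior against 1 residual degree of freedom). The SEs of most genes there were close to the shared SD of 0.051. None of the p-values measures the spread between single mice. The fits of age and diet within segments took the 3 segments of a pool as independent.

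Collagens are the rope and sheet proteins of connective tissue. Fibrillar collagens give tensile strength, network collagens line the basement membrane below the epithelium, and small leucine-rich proteoglycans such as decorin coat the fibrils and set their spacing. Matricellular proteins such as Sparc and thrombospondin are secreted into the matrix but mainly regulate cells rather than bear load, and in the gut most of these proteins are made by fibroblasts of the lamina propria and submucosa that carry the receptor Pdgfra.

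The samples were scrapings that took both the mucosa and the submucosa, the connective tissue layer below it. Epithelial genes were bright on all 12 arrays, with log2 intensities of 12.81 to 12.97 for Vil1, the villin of the brush border, and 12.92 to 13.55 for the fatty acid binding protein Fabp2. Fibroblast markers were measured as well, with 6.54 to 7.98 for Pdgfra, 7.72 to 9.50 for Dcn and 6.95 to 7.87 for Col3a1, whereas the fibroblast proteoglycan lumican (Lum) was dim on every array (3.44 to 5.27). In RNA of a whole scraping, fewer cells of a type and less RNA per cell cannot be told apart. The medians of the arrays lay between 5.57 and 5.70, and the number of arrays limits the precision.

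The 6 dim genes were Col5a2 with a highest intensity that rounds to 50, just outside the limit, Mgp with 44.7, Col4a5 with 41.3, Lum with 38.5, Col4a6 with 36.4 and Lox, the enzyme that cross-links collagen and elastin, with 23.2. Just inside the limit were Eln with a highest intensity of 57.0 and Aspn with 59.5. Of the 33 tested genes, 26 were over 50 on all 12 arrays. Aspn and Dpt were over 50 on young arrays only, Aspn on 1 of them, and Aspn, Dpt and Postn were over 50 on distal arrays only. These genes entered the tests through the arrays on which they were high, so their differences in that direction are given as values with no p, and counts in that direction are also given without them.

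Promoter sequences of 26 of the 40 genes were matched in RefSeq (build GRCm38.p6, 250 bases before and 50 after the start of the gene). They are printed for Col1a2, Pdgfra and Col3a1, which followed the other matrix genes most closely over the arrays, and for 1 of 2 listed promoters of Fbln1, which followed them least. Capitals mark matches, on either strand, to CCAAT (bound by the factor NF-Y), to TATAAA (the TATA box), to GGAATG (the core bound by TEAD factors) and to TGANTCA (bound by AP-1).
Col1a2, chr6:4505368-4505667, plus strand: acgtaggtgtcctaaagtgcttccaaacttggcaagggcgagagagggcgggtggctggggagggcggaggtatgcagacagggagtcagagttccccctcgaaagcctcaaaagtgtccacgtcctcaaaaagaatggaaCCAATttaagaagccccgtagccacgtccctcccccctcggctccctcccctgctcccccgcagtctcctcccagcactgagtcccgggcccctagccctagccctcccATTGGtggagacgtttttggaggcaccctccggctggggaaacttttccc
Pdgfra, chr5:75152001-75152300, plus strand: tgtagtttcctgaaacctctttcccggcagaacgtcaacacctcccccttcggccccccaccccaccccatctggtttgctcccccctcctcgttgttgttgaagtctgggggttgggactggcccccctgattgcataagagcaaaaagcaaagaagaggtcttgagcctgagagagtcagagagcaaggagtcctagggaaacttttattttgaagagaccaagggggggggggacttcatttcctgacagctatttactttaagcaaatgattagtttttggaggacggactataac
Col3a1, chr1:45311288-45311587, plus strand: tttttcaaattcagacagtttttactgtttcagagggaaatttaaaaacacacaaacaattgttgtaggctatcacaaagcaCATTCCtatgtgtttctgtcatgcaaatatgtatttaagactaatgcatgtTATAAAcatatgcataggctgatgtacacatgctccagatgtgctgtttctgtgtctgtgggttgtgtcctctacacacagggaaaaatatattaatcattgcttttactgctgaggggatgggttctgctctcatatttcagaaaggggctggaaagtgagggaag
Fbln1, chr15:85205699-85205998, plus strand: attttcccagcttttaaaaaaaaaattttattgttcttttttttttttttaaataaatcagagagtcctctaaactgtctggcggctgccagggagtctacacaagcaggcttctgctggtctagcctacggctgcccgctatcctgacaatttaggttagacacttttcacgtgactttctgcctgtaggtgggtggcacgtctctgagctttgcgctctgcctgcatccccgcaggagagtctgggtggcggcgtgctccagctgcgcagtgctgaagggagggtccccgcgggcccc
The Col1a2 window held CCAAT on the plus strand starting 109 bases before the start of the gene and again on the minus strand at the start itself. The Col3a1 window held TATAAA 117 bases and GGAATG (on the minus strand) 168 bases before the start, and the windows of Pdgfra and Fbln1 held none of the 4 motifs. Over the 32 promoters of the listed genes, 31.2% held the NF-Y motif, 25% the TATA box, 18.8% the TEAD core and 3.12% the AP-1 motif. Of all 32851 promoters of this length, 37.4% held the NF-Y motif, 13.6% the TATA box, 14.7% the TEAD core and 7.81% the AP-1 motif. No matches overlapped in the printed windows. A match describes the letters only.

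Age was compared first, over the mean of the 3 segments. In old mice 21 of the 33 genes fell and 0 rose (adjusted p under 0.05), while 2.17% of all 11917 genes fell and 0.789% rose. Leaving aside Aspn and Dpt, which passed the limit on young arrays only, 19 of 31 genes fell. The differences had a median of −0.39 on the log2 scale over the 33 genes and −0.34 over these 31, against 0.01 for all genes. All 5 tested matricellular genes fell, as did the 3 tested small leucine-rich proteoglycans other than Aspn and 6 of 12 collagens, while 0 of 5 basement membrane and 0 of 3 elastic fibre genes passed. Since the list was drawn up with results of these arrays known, its counts describe these genes and do not test them as a set.

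**Figure D1:**
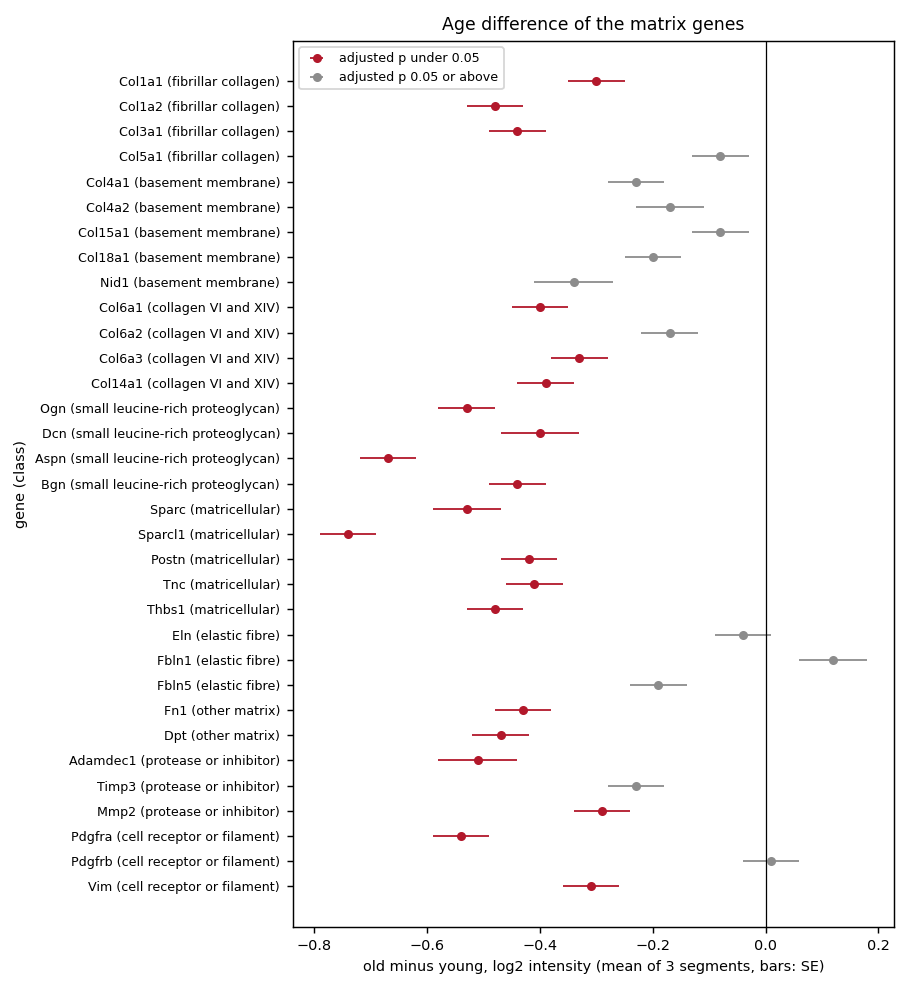
Difference between old and young mice in log2 intensity (x axis, mean of the 3 segments, bars show the SE) for each of the 33 tested genes (y axis, class in parentheses); red points passed an adjusted p of 0.05 and grey points did not. All 21 red points lie below 0, from −0.74 for Sparcl1 to −0.29 for Mmp2, and the grey points run from −0.34 for Nid1 to 0.12 for Fbln1.

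Of the 4 tested fibrillar collagens 3 fell in old mice. Col1a2, a chain of type I collagen, had in the proximal segment 7.19 (high-fat) and 7.09 (low-fat) in old mice against 7.75 and 7.89 in young mice. It had 7.45 and 7.04 in old and 7.55 and 7.30 in young mice in the middle segment, and 7.03 and 7.45 in old against 7.76 and 7.89 in young mice in the distal segment. Old and young arrays were apart proximally and distally and overlapped in the middle. Over the segments Col1a2 averaged 7.21 in old and 7.69 in young mice, a difference of −0.48 ± 0.05 (SE, adjusted p = 0.00715). Its partner chain Col1a1 fell by 0.30 ± 0.05 (adjusted p = 0.0294) and Col3a1, the type III collagen of elastic tissues, by 0.44 ± 0.05 (adjusted p = 0.0089). Col5a1, a minor fibrillar chain that helps to start fibrils, had a mean of 6.31 in old and 6.40 in young mice and did not pass (−0.08 ± 0.05, adjusted p = 0.416). Col3a1 lies next to the dim gene Col5a2 on chromosome 1, with no coding gene between them.

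Type VI collagen, which forms beaded filaments around cells, gave 2 of 3 calls. Col6a1 fell by 0.40 ± 0.05 (adjusted p = 0.0142) and Col6a3 by 0.33 ± 0.05 (adjusted p = 0.019). Col6a2, the neighbour of Col6a1 on chromosome 10, had 6.68 in old and 6.85 in young mice and did not pass (adjusted p = 0.133). The fibril-associated collagen Col14a1 averaged 6.72 in old and 7.11 in young mice and fell by 0.39 ± 0.05 (adjusted p = 0.0159).

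None of the 5 tested basement membrane genes passed. Their differences had a median of −0.20, and all 5 were below 0. Nid1, the nidogen that links laminin to collagen IV, had the lowest difference (−0.34 ± 0.07, adjusted p = 0.0577). The type IV collagen chains Col4a1 and Col4a2, neighbours on chromosome 8, had −0.23 ± 0.05 (adjusted p = 0.0623) and −0.17 ± 0.06 (adjusted p = 0.249). Col18a1, the precursor of endostatin, had −0.20 ± 0.05 (adjusted p = 0.0969), and Col15a1 had −0.08 ± 0.05 (adjusted p = 0.417). Whether these genes differ from the fibrillar collagens in their response to age was not tested.

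Of the small leucine-rich proteoglycans Dcn, Bgn and Ogn fell in old mice, Aspn was over the limit on 1 young array only, and Lum was too dim to be tested. Dcn, decorin, the main proteoglycan on collagen fibrils, had proximally 7.72 (high-fat) and 7.73 (low-fat) in old against 8.14 and 8.52 in young mice. In the middle segment it had 8.27 and 8.20 in old and 8.35 and 8.13 in young mice, and distally 8.05 and 9.42 in old and 9.13 and 9.50 in young mice. Its groups overlapped in the middle and distal segments, where 1 array, that of old high-fat mice, was far below the others. Dcn fell by 0.40 ± 0.07 over the segments (adjusted p = 0.0373). Bgn, biglycan, the closest relative of decorin, fell by 0.44 ± 0.05 (adjusted p = 0.0089), and Ogn, osteoglycin, by 0.53 ± 0.05 (adjusted p = 0.00657). The fall of Ogn was uneven. Old minus young was −0.11 (high-fat) and −0.88 (low-fat) proximally, −0.17 and −0.13 in the middle segment and −1.41 and −0.47 distally. The SE over the segments comes from pool means, in which opposite departures of segments cancel. In the distal segment alone Ogn did not pass (−0.94 ± 0.23, adjusted p = 0.135). Aspn, asporin, averaged 4.19 in old and 4.86 in young mice (−0.67 ± 0.05), at a level below the limit on all arrays but 1. Ogn and Aspn lie on chromosome 13 with 1 coding gene, Omd, between them.

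All 5 matricellular genes fell. Sparcl1, also called hevin, an anti-adhesive relative of Sparc, had proximally 8.09 (high-fat) and 8.04 (low-fat) in old against 8.63 and 8.98 in young mice. It had 8.43 and 8.00 in old against 8.81 and 8.52 in young mice in the middle segment, and 7.92 and 8.92 in old against 9.23 and 9.69 in young mice in the distal segment. Both old arrays lay below both young arrays in every segment, which held for 3 of the 33 genes (Col1a1, Col6a1 and Sparcl1) and for 1.56% of all genes. Sparcl1 averaged 8.23 in old and 8.98 in young mice, the lowest difference of the 33 genes (−0.74 ± 0.05, adjusted p = 0.00249). Sparc, which binds collagen, fell by 0.53 ± 0.06 (adjusted p = 0.0122). Thbs1, thrombospondin, an activator of latent TGF-beta, fell by 0.48 ± 0.05 (adjusted p = 0.00752), Postn, periostin, by 0.42 ± 0.05 (adjusted p = 0.0112) and Tnc, tenascin C, by 0.41 ± 0.05 (adjusted p = 0.0142). For Postn the pairs of arrays ran from −1.15 (distal, high-fat) to 0.10 (middle, high-fat), a spread that the SE of the pool means does not show.

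None of the 3 tested elastic fibre genes passed. Fbln1, fibulin 1, a glycoprotein of elastic fibres and basement membranes, had proximally 10.40 (high-fat) and 10.47 (low-fat) in old and 10.37 and 10.54 in young mice. In the middle segment it had 10.30 and 10.28 in old and 10.13 and 10.36 in young mice, and distally 9.41 and 9.17 in old and 8.91 and 9.0 in young mice. Its groups overlapped proximally and in the middle, and distally both old arrays were above both young arrays. The mean difference was 0.12 ± 0.06 (adjusted p = 0.379). Eln, elastin, had −0.04 ± 0.05 (adjusted p = 0.708), and Fbln5, needed for elastic fibre assembly, −0.19 ± 0.05 (adjusted p = 0.0972). Proximally both old arrays of Fbln5 lay below both young arrays. Whether these genes differ from the other classes in their response to age was not tested.

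The other secreted genes mostly fell. Fn1, fibronectin, the adhesive protein on which collagen is laid down, fell by 0.43 ± 0.05 (adjusted p = 0.0134). Dpt, dermatopontin, a small decorin-binding protein that was over the limit on young arrays only, had a difference of −0.47 ± 0.05. Adamdec1, a secreted metalloprotease relative that is high in the gut, averaged 9.30 in old and 9.80 in young mice and fell by 0.51 ± 0.07 (adjusted p = 0.0152). Mmp2, a gelatinase, fell by 0.29 ± 0.05 (adjusted p = 0.042), and Timp3, a matrix-bound inhibitor of such proteases, did not pass (−0.23 ± 0.05, adjusted p = 0.0711).

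Of the PDGF receptors 1 of 2 passed. Pdgfra had proximally 7.32 (high-fat) and 7.09 (low-fat) in old against 7.90 and 7.98 in young mice, and in the middle segment 7.45 and 6.93 in old and 7.57 and 7.19 in young mice. Distally it had 6.54 and 7.29 in old against 7.46 and 7.77 in young mice. The groups were apart in the proximal and distal segments, and over the segments Pdgfra fell by 0.54 ± 0.05 (adjusted p = 0.00508). Pdgfrb, the receptor of pericytes and some fibroblasts, had proximally 6.84 (high-fat) and 6.82 (low-fat) in old against 7.22 and 7.24 in young mice. It had 7.07 and 6.69 in old and 7.10 and 6.80 in young mice in the middle segment, and 7.98 and 8.08 in old against 7.51 and 7.55 in young mice distally. Old mice were thus below young mice proximally and above them distally, and the mean over the segments was 7.25 in old and 7.24 in young mice (0.01 ± 0.05, adjusted p = 0.932). Vim, vimentin, the intermediate filament of mesenchymal cells, fell by 0.31 ± 0.05 (adjusted p = 0.0373).

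**Figure D2:**
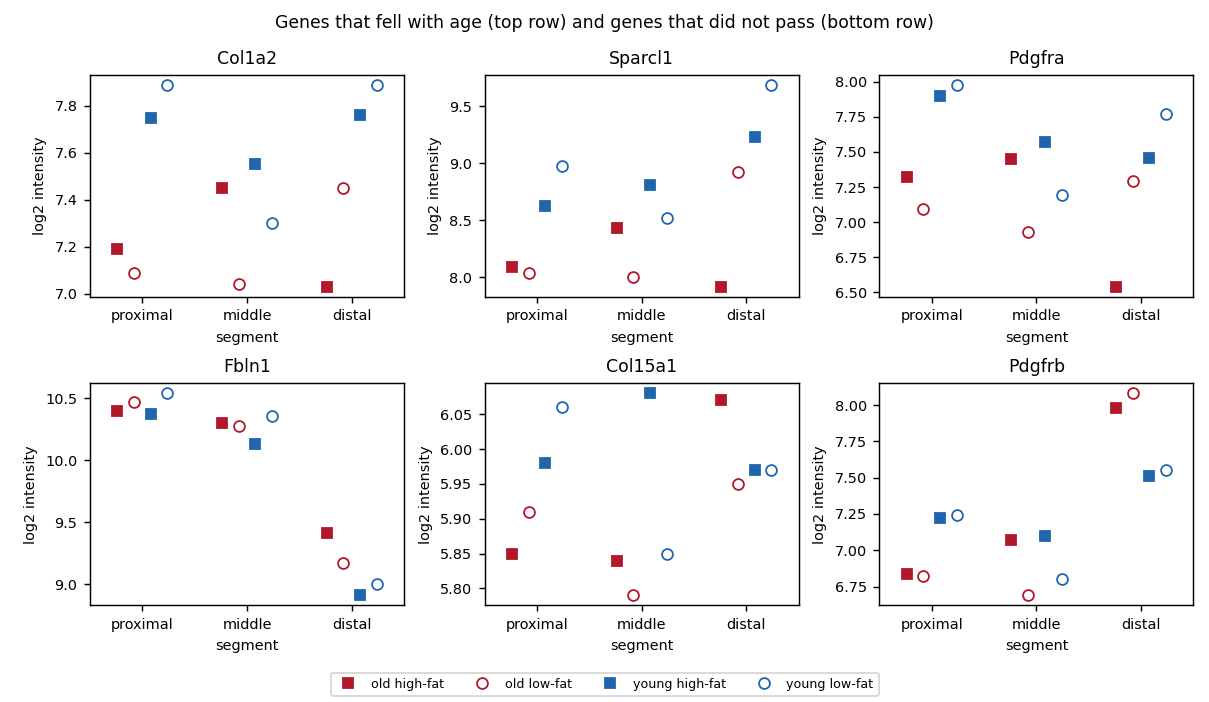
Log2 intensity (y axis, with its own range in each panel) on each of the 12 arrays by segment (x axis) for Col1a2, Sparcl1, Pdgfra, Fbln1, Col15a1 and Pdgfrb; red symbols are old and blue symbols young mice, squares high-fat and circles low-fat. Sparcl1 was lower in old mice in every segment, whereas Pdgfrb was lower in old mice proximally (6.82 and 6.84) and higher distally (7.98 and 8.08).

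The call for 21 genes depended on the arrays used. Without the distal old high-fat array, in a fit to the other 11 arrays with the pool as a random block, 8 genes passed (the same fit to all 12 arrays called 23), and without the distal segment 6 passed. Without a filter on intensity 11 passed, and with age as the only term 0 passed.

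Within the segments, each of which rests on 4 arrays, fewer genes passed. Distally 6 of the 33 genes fell (background 0.478% of all genes) and 1 rose (background 0.201%). Leaving aside Aspn and Dpt, which were over the limit on young arrays only, 4 of 31 genes fell. Aspn had distally 4.04 (high-fat) and 4.88 (low-fat) in old against 5.28 and 5.90 in young mice (−1.13 ± 0.10), and Dpt 4.72 and 5.62 in old against 5.93 and 6.60 in young mice (−1.10 ± 0.09). The 4 others were Sparcl1 (−1.04 ± 0.14, adjusted p = 0.0378), Sparc (−0.61 ± 0.10, adjusted p = 0.0491), Fn1 (−0.61 ± 0.08, adjusted p = 0.0371) and Col3a1 (−0.55 ± 0.08, adjusted p = 0.0454). Pdgfrb rose by 0.51 ± 0.07 (adjusted p = 0.0378). Leaving out any 1 of the 12 arrays brought the count of 7 genes down to 4 or fewer, and it was 0 without the distal old high-fat or without the distal young high-fat array.

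In the proximal segment 2 genes fell (background 0.0839%) and 0 rose (background 0.0252%). Thbs1 had 6.76 in both old pools against 7.55 (high-fat) and 7.73 (low-fat) in young mice, a difference of −0.88 ± 0.10 (adjusted p = 0.0448). Tnc had 5.21 and 5.65 in old against 5.90 and 6.32 in young mice (−0.68 ± 0.08, adjusted p = 0.0448). Neither passed in any of the fits that left out 1 of the 12 arrays. Proximally both old arrays lay below both young arrays for 31 of the 33 genes, where this held for 16.4% of all genes, and the exceptions were Eln and Fbln1. Distally it held for 20 genes (18.6% of all genes), 18 of 31 without Aspn and Dpt, and in the middle segment for 6 (12.7% of all genes), namely Col1a1, Col4a2, Col15a1, Col6a1, Ogn and Sparcl1.

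In the middle segment 0 of the 33 genes passed for age, against 0.0252% of all genes in either direction. There the pairs of arrays gave small differences for the 33 genes, with a median of −0.09 on the high-fat and −0.19 on the low-fat diet, against −0.36 and −0.51 proximally and −0.46 and −0.31 distally. All 6 pairs of arrays had a lower value in old mice for 19 of the 33 genes, 17 of 31 without Aspn and Dpt, as for 4.36% of all genes. The difference in the age response between segments was tested directly, and 0 of the 33 genes passed for distal against proximal (0% of all genes), distal against middle (0%) or middle against proximal (0.0252%). At an unadjusted p under 0.05 the count was 6 of the 33 genes (18.2%) for distal against proximal, where 8.86% of all genes passed. It was 13 (39.4%) for distal against middle, with 11.6% of all genes, and 12 (36.4%) for middle against proximal, with 4.98% of all genes. Aspn and Dpt are among the 6 and the 13. They were over the limit on distal young arrays only, which favours a lower age difference distally. Pdgfrb came nearest, with an age difference that was 0.91 ± 0.10 higher distally than proximally (adjusted p = 0.074).

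**Figure D3:**
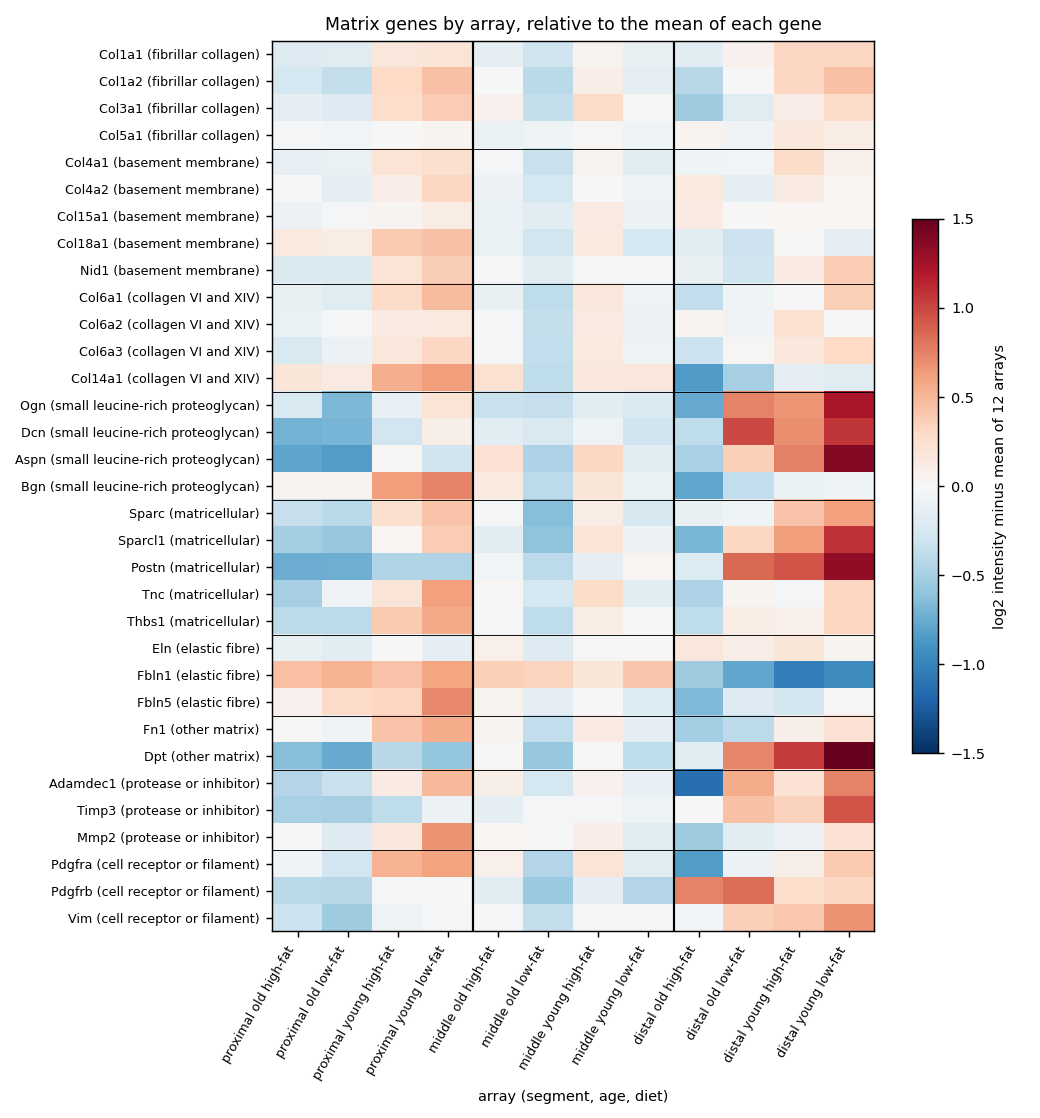
Log2 intensity of each of the 33 tested genes (y axis) on each of the 12 arrays (x axis) minus the mean of that gene over the arrays, in colour from −1.5 (blue) to 1.5 (red); black lines part segments and classes. Adamdec1 is bluest on the distal old high-fat array (8.42, against 9.77 to 10.29 on the other distal arrays), while Dcn and Aspn are lower on both proximal old arrays than on that array, and Fbln1 is blue on the 4 distal arrays.

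When pairs of arrays were compared with a limit of 2-fold, the distal old high-fat array was part of 12 of the 13 cases among the 33 genes. On the high-fat diet 7 of the 33 genes (Ogn, Dcn, Aspn, Sparcl1, Postn, Dpt and Adamdec1) were lower by over 2-fold in the old mice distally, against 0.52% of all genes, and 5 of 31 without Aspn and Dpt. On the low-fat diet 1 gene, Aspn, was over 2-fold lower distally (0.151% of all genes). Its only array over the limit was the young array of this pair, so the limit favoured this direction. In old mice 5 genes (Ogn, Dcn, Sparcl1, Postn and Adamdec1) were over 2-fold lower distally on the high-fat than on the low-fat diet (0.411% of all genes). In the other 9 comparisons of age or diet 0 of the 33 genes were over 2-fold lower (0.604% of all genes were so at least once), and in all 12 comparisons 0 were over 2-fold higher (0.973% of all genes at least once). These pairs of arrays have no replicate check. Summed markers of several other cell types were also lowest distally on the old high-fat array, as given below.

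Diet was compared next. Over the mean of the 3 segments 2 of the 33 genes fell on the high-fat diet (3.21% of all genes fell) and 0 rose (2.56% of all genes rose). Ogn averaged 5.63 on the high-fat and 5.94 on the low-fat diet (−0.31 ± 0.05, adjusted p = 0.0195), and Adamdec1 9.37 and 9.73 (−0.36 ± 0.07, adjusted p = 0.0297). Both rested on the distal segment, where old mice had 5.04 (high-fat) and 6.54 (low-fat) for Ogn and 8.42 and 10.11 for Adamdec1. Without the distal segment their differences were 0.05 and 0.02. Neither passed with the pool as a random block, on all 12 arrays or without the distal old high-fat array.

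Within segments, Aspn and Dpt changed one way in the distal and the other way in the middle segment. Distally both fell on the high-fat diet (2 of 33 genes, against 0.168% of all genes) and 0 genes rose (0.361% of all genes). Aspn was over the limit only on the distal young low-fat array, and without it 1 of 32 genes fell. Aspn had distally 4.04 (old) and 5.28 (young) on the high-fat against 4.88 and 5.90 on the low-fat diet (−0.73 ± 0.10). Dpt had 4.72 and 5.93 on the high-fat against 5.62 and 6.60 on the low-fat diet (−0.79 ± 0.09, adjusted p = 0.0151). In each age the high-fat array was the lower one, and neither gene passed without the old high-fat or the old low-fat array of this segment. Aspn also missed the threshold without any 1 of the middle arrays.

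In the middle segment the same genes rose (2 of 33, against 1.31% of all genes) and 0 fell (1.24% of all genes). Aspn had 4.75 (old) and 4.84 (young) on the high-fat against 4.06 and 4.37 on the low-fat diet (0.58 ± 0.10, adjusted p = 0.034). Dpt had 4.89 and 4.90 on the high-fat against 4.31 and 4.50 on the low-fat diet (0.49 ± 0.09, adjusted p = 0.0347). Both high-fat arrays were above both low-fat arrays, although all 4 middle arrays were below the intensity limit for both genes, and neither call was kept when any 1 middle array was left out. Dpt also missed the threshold without any 1 of the proximal arrays.

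The diet difference itself was compared between segments in a test added after seeing the data, in which the distal low-fat value through which Aspn passed the limit also takes part. It was lower distally than in the middle segment for 2 of 33 genes, against 0.0503% of all genes. These were Dpt (−1.27 ± 0.12, adjusted p = 0.0237) and Aspn (−1.31 ± 0.14). Aspn is given with no p, since the limit favoured this direction, and leaving it aside Dpt was the only gene. For the middle against the proximal segment 0 genes passed (0.0252% of all genes in either direction), and for the distal against the proximal segment 0 (0.0503%). With quantile normalization Aspn missed the threshold, and both genes missed it when any 1 of the middle arrays or of the distal old arrays was left out. In the proximal segment 0 of the 33 genes passed for diet, against 0.319% of all genes.

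**Figure D4:**
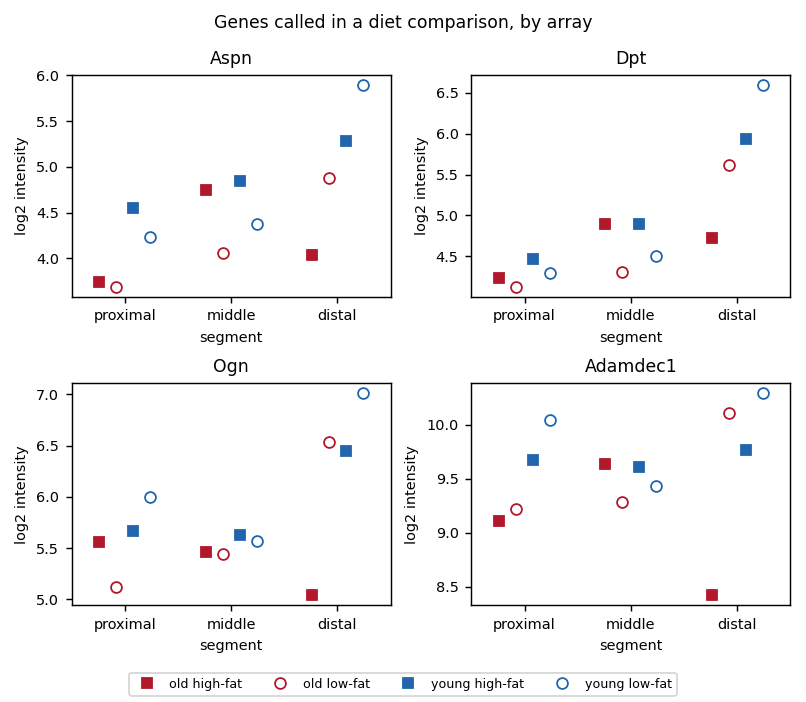
Log2 intensity (y axis, with its own range in each panel) on each of the 12 arrays by segment (x axis) for Aspn, Dpt, Ogn and Adamdec1; red symbols are old and blue symbols young mice, squares high-fat and circles low-fat. For Aspn and Dpt the high-fat squares are above the low-fat circles of the same age in the middle segment and below them in the distal segment.

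The other genes did not pass for diet within a segment, and their direction is given as a description. In the middle segment the high-fat array was above the low-fat array for 31 of the 33 genes in old mice (median 0.32) and 29 in young mice (median 0.22), as for 49.2% and 50.5% of all genes. Distally it was below for 25 genes in old mice (median −0.36) and 24 in young mice (median −0.19), as for 52.4% and 49% of all genes. The medians of all genes in these 4 pairs of arrays were between −0.01 and 0.00.

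Along the gut, genes of the same class were called in opposite directions. Between the distal and the proximal segment 8 genes were higher (background 27.3%) and 6 lower (background 27.5%). Between the distal and the middle segment 8 were higher (14.7%) and 2 lower (20%), and between the middle and the proximal segment 2 were lower (10.9%) and 0 higher (14.1%). Aspn, Postn and Dpt were over the limit on distal arrays only, and without them 5 of 30 genes (16.7%) were higher distally than proximally and 6 of 30 (20%) higher distally than in the middle segment. Of the 33 genes, 18.2% were lower distally than proximally and 6.06% lower distally than in the middle. No test compared these shares with those of all genes.

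Among the proteoglycans, Dcn averaged 9.02 distally and 8.03 proximally (1.00 ± 0.23, adjusted p = 0.00371) and Aspn 5.03 and 4.05 (0.97 ± 0.26). Bgn had the opposite course, with 7.26 distally and 7.96 proximally (−0.70 ± 0.15, adjusted p = 0.00227). Among the matricellular genes Postn had 5.55 distally and 4.22 proximally (1.33 ± 0.21), and the 4 others did not pass. Dpt had 5.72 distally and 4.28 proximally (1.44 ± 0.27). Since Aspn, Postn and Dpt entered the test through distal arrays, no p is given for them.

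Of the 3 elastic fibre genes Fbln1 had the largest difference along the gut. It lay between 8.91 and 9.41 on the 4 distal arrays, 10.13 and 10.36 on the 4 middle arrays and 10.37 and 10.54 on the 4 proximal arrays, so that the distal arrays were apart from all others. The difference was −1.32 ± 0.08 for distal against proximal (adjusted p = 6.34e-07) and −1.14 ± 0.08 for distal against middle (adjusted p = 6.73e-06). Fbln5 was also lower distally than proximally (−0.63 ± 0.13, adjusted p = 0.00229), whereas Eln was higher by 0.23 ± 0.06 (adjusted p = 0.00658).

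Of the 12 tested collagens 2 differed between the distal and the proximal segment. Col14a1 averaged 6.50 distally and 7.29 proximally (−0.78 ± 0.12, adjusted p = 0.000374) and Col18a1 6.16 and 6.58 (−0.42 ± 0.07, adjusted p = 0.00075). Col18a1 was already lower in the middle than in the proximal segment (−0.40 ± 0.07, adjusted p = 0.00346), as was Fbln5 (−0.42 ± 0.13, adjusted p = 0.0392). Fn1 was lower distally than proximally (−0.38 ± 0.12, adjusted p = 0.0179). Timp3 (0.80 ± 0.12, adjusted p = 0.000273), Pdgfrb (0.75 ± 0.17, adjusted p = 0.00321) and Vim (0.59 ± 0.11, adjusted p = 0.00117) were higher distally. Against the middle segment, the distal segment was also higher for Col1a1 (0.25 ± 0.07, adjusted p = 0.023) and Sparc (0.42 ± 0.13, adjusted p = 0.0355).

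**Figure D5:**
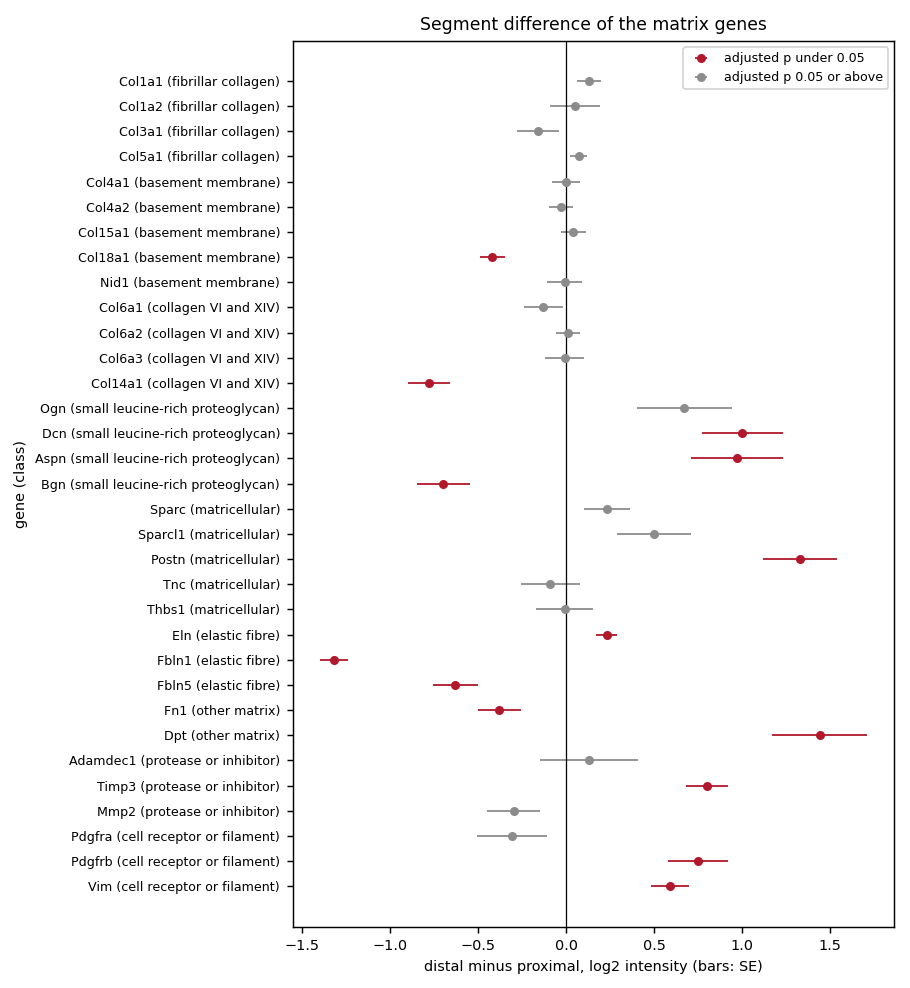
Difference between the distal and the proximal segment in log2 intensity (x axis, bars show the SE) for each of the 33 tested genes (y axis, class in parentheses); red points passed an adjusted p of 0.05 and grey points did not. Dpt (1.44) and Postn (1.33), both over the limit on distal arrays only, lie farthest to the right and Fbln1 (−1.32) farthest to the left, while 10 of 12 collagens are grey.

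Most of the genes varied together within segments, which is given as a description. After the mean of each segment was subtracted, 22 of the 33 genes had a correlation over 0.8 with the mean of the other genes over the 12 arrays, led by Col1a2 (0.99), Pdgfra (0.99), Col3a1 (0.98) and Sparcl1 (0.98). Col15a1 (0.32), Eln (0.16), Pdgfrb (0.12) and Fbln1 (−0.58) followed least. With the mean of the smooth muscle markers, treated the same way, 15 of the 33 genes had a correlation over 0.8 and the median was 0.78, against 0.87 with the mean of the other matrix genes. Sparcl1 had 0.94 and Col3a1 0.89 with these markers. These values describe 12 arrays of 4 pools that share age, diet and the normalization. The share of all genes with such correlations was not computed, so whether 22 of 33 is unusual was not tested.

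Genes that act on the same matrix were examined from further lists for age over the segments, where 2.17% of all genes fell and 0.789% rose. Of 13 tested genes of collagen processing (such as the collagen chaperone Serpinh1, −0.29 ± 0.08, adjusted p = 0.126) 0 fell and 0 rose with age over the segments, and likewise of 22 integrins and collagen receptors. Of 19 other collagens 1 fell, Col6a4 (−0.54 ± 0.06, adjusted p = 0.0089). Of 15 laminins and other basement membrane genes 4 fell, among them the mesenchymal laminin chain Lama4 (−0.53 ± 0.06, adjusted p = 0.0102), and 1 rose, the epithelial chain Lamb3 (0.35 ± 0.06, adjusted p = 0.0284). Several lists had 4 genes that fell, namely 4 of 22 other proteoglycans and glycoproteins with Igfbp7 lowest (−0.57 ± 0.05, adjusted p = 0.00456), 4 of 12 proteases and inhibitors with Serping1 lowest (−0.47 ± 0.05, adjusted p = 0.00752), and 4 of 18 genes of TGF-beta and PDGF signalling with the ligand Pdgfc lowest (−0.59 ± 0.05, adjusted p = 0.00508). Of 17 other fibroblast genes 4 fell, including the transcription factor Tcf21 (−0.43 ± 0.05, adjusted p = 0.00985), and 1 rose. In these further lists, genes over the limit on arrays of 1 age only were not left aside, so the calls may include such genes.

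Markers of some other cell types also fell with age over the segments, where 2.17% of all genes fell and 0.789% rose. Other marker lists had no such calls. Of 20 smooth muscle markers 19 were tested, all over the limit on at least 1 array, and 13 fell with age over the segments while 0 rose, with a median of −0.63 against −0.39 for the 33 matrix genes. Their summed intensity ran from 2572 to 5202 on the old arrays and from 2879 to 8654 on the young arrays. Myh11, the smooth muscle myosin, fell by 0.99 ± 0.06 (adjusted p = 0.00249). Distally 12 of the 19 fell (median −0.98), against 0.478% of all genes. Between the distal and the proximal segment 16 were higher and 1 lower (median 0.90), against 27.3% and 27.5% of all genes. In the marker lists, genes over the limit on young or distal arrays only were not left aside. Of 14 tested endothelial markers 7 fell, and their sum was 745 to 979 on old and 922 to 1427 on young arrays, with Prox1 and Flt4, which mark lymphatic vessels, under the limit. Of 5 tested pericyte markers 2 fell (sum 290 to 473 on old and 366 to 747 on young arrays), of 8 adipocyte markers 3 (2123 to 3497 on old and 2899 to 3182 on young arrays) and of 13 myeloid markers 4 (2054 to 3153 on old and 2682 to 3101 on young arrays). Of 15 epithelial markers 0 fell and 0 rose (66069 to 78400 on old and 66327 to 74874 on young arrays), as was the case for 6 enteric glia and neuron, 4 mesothelial and 7 B cell markers, where S100b, Gfap, Chat, Msln and Cxcr5 were under the limit. Of the distal arrays, that of old high-fat mice had the lowest smooth muscle sum (3797, against 5202 to 8654 on the others). The same held for endothelial (745 against 886 to 1006), myeloid (2054 against 2860 to 3101) and B cell markers (350 against 553 to 667). Pericyte, enteric glia and neuron, and mesothelial sums were lowest there too, but not the adipocyte sum. The epithelial sum was highest there (78400 against 72756 to 74874). The part of these cells in the differences of the matrix genes was not tested.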

How the data were processed

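RNA of scrapings of mucosa plus submucosa was pooled per group (8 old or 6 young mice) and hybridized to 12 Affymetrix Mouse Gene 1.0 ST arrays. The authors deposited log2 values from RMA (Robust Multi-array Average), which corrects background, sets all arrays to 1 distribution of intensities and summarizes the probes of a set. A change of the total RNA therefore cannot be seen. Of 35556 probe sets, 21789 had 1 gene symbol, 1621 several and 12146 none, which gave 19938 genes by the brightest set. After the limit on intensity (over 50, 1 array or more) and the removal of 31 acinar pancreas genes (the methods remove pancreas-specific genes without listing them), 11917 genes were tested.

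Age and diet within segments were fitted with limma 3.58.1 in R 4.3.3 (statmod 1.5.0) to 12 arrays with 9 coefficients (3 residual degrees of freedom, 4.38 prior degrees of freedom, prior SD 0.088). The means over the segments were fitted to the 4 pools with age and diet (1 residual and 5.72 prior degrees of freedom, prior SD 0.051), and segments with pool as a term, since segments of a pool share mice (6 residual degrees of freedom). With the pool as a random block, the correlation within pools by duplicateCorrelation was −0.08 in the fit within segments and −0.223 in the fit over the segments. Any effect of diet on the age difference counts as error here. Adjusted p-values are those of limma after Benjamini-Hochberg over all genes tested, and a value under 0.05 counts as passed. Fits were tested on simulated data with independent errors on each array. The simulated data held no effect of pool or diet, so they do not check the fits for segments that share mice. Python 3.11.15 (pandas 2.3.3, numpy 2.4.6, matplotlib 3.10.9) did the rest.

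The 40 genes and all other lists were chosen with earlier results of these data known. Named are all tested genes of the list, the dim ones by intensity, and of other lists up to 4 genes with the largest age difference; genes under the limit in the marker lists are examples. Alternatives covered the filter, scaling, variance model, probe set rule, pool term and each array or segment left out.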

Additional observations from a re-analysis of the deposited data

Results flagged for a closer look

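The diet response of Dpt differed between the middle and the distal segment by the test of that difference, and that of Aspn went the same way. The high-fat minus low-fat difference was lower distally than in the middle segment, by −1.27 for Dpt (adjusted p = 0.0237) and −1.31 for Aspn on the log2 scale. No p is given for Aspn, whose only array over the limit was the distal young low-fat array. In the distal segment both high-fat arrays were below the low-fat array of the same age, and in the middle segment both were above it. Both genes were under the intensity limit on all 4 middle arrays, and the test was added after seeing the data. No group held enough arrays to look for an array that departs from its group.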

How the results depend on the processing

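The counts of genes called are those of the 33 tested genes. With no filter on intensity, 11 genes instead of 21 were called for age over the segments, 2 instead of 7 distally and 0 instead of 2 proximally, and for diet 0 instead of 2 over the segments and 0 instead of 2 in the middle. With intensity over 100, age gave 1 proximally and diet 1 distally and 4 over the segments, the distal against middle diet difference 0 and the distal against proximal age difference 1 instead of 0. An intensity trend with robust variance gave 14 distally and 9 proximally for age, 1 for its distal against proximal difference, and for diet 5 distally, 5 over the segments, 6 in the middle and 6 for the distal against middle difference. The arrays of a segment alone gave 3 distally and 0 proximally for age and 4 in the middle for diet. For the mean over segments, age as the only term gave 0, leaving out the distal segment 6, and leaving out the distal old high-fat array with a random block 8 genes. For diet these were 0 with diet as the only term, 4 with a random block, 4 without the proximal segment and 0 without the distal old high-fat array. Median centring and quantile normalization each gave 1 for diet over the segments. Without the distal segment the diet differences were 0.05 for Ogn and 0.02 for Adamdec1. Quantile normalization gave 1 for the distal against middle diet difference. For the middle against the proximal segment, no filter gave 1, median centring 5 and quantile normalization 4 instead of 2. In pairs of arrays, median centring gave 2 and quantile normalization 0 instead of 1 gene lower distally with age on the low-fat diet, and quantile normalization 3 instead of 5 lower with diet in old mice. Over all calls of a single gene in a comparison and all settings other than leaving out an array, 441 values passed as before, 112 kept the direction without passing and 2, those of Ogn and Adamdec1 without the distal segment, turned it. No scaling moved the median of all genes by over 0.1.

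Leaving out 1 array in turn gave 0 to 4 genes for age distally, 0 to 0 proximally, 0 to 3 for diet distally, 0 to 2 for diet in the middle, 0 to 2 for the distal against middle diet difference and 1 to 8 for the middle against the proximal segment, where 8 came without the distal old high-fat and 7 without the middle old high-fat array. Without the replicate block, that is with no pool term, 15 genes instead of 14 differed between the distal and proximal, 11 instead of 10 between the distal and middle and 3 instead of 2 between the middle and proximal segment. The causes of these shifts were not tested. Aspn, Dpt and Postn were near or below the limit on most arrays, where signal over background limits their differences.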
